A study of Mus musculus with 6 samples.

Results

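The genes described here are the intraflagellar transport (Ift) and Bardet-Biedl syndrome (Bbs) genes, the machinery that builds cilia and sorts their membrane proteins. They were chosen by name alone, as every gene whose symbol is Ift or Bbs followed directly by a digit, and the rule found 23 of the 40273 genes in the deposited table. Of these, 22 code for proteins and 1, Ift88os, is an RNA antisense to Ift88. Their RNA was counted in bulk RNA-seq of olfactory mucosa, the nasal lining where the sensory neurons of smell reside. The 6 donors were male mice aged 30 days after birth. In 3 of them the eC element was deleted, and the 3 control mice are labelled wildtype. All were on the mixed background 129S6;C57BL/6J, and no transgene or Cre is named in the labels for either group. eC is a stretch of 1005 bp on chromosome 7 (102916999 to 102918004, read here as GRCm38) that the series title calls an enhancer of class I odorant receptors, and none of the 23 genes lies on that chromosome. The labels do not say whether littermates were used or how many deletion lines were made.

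Intraflagellar transport carries cargo along the microtubules of a cilium on trains built from a pair of protein complexes. IFT-B rides with kinesin-2 towards the tip, IFT-A is needed for the return trip with dynein-2 and for bringing membrane proteins in, and the BBSome rides on the same trains and moves membrane proteins out of the cilium. Odorant receptors and the channels they open sit in the long cilia of olfactory sensory neurons, and mice without Bbs1 or Bbs4 are known to have impaired smell and disturbed olfactory cilia. Cells with motile cilia in the neighbouring respiratory lining use the same genes, so bulk RNA from the mucosa sums over both cell types. In such samples fewer cells of a type and less RNA per cell cannot be told apart.

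The libraries held 30342763 to 49279931 reads assigned to genes in deletion mice and 31100948 to 50906277 in control mice. They fell into a pair of sets that the labels do not explain. Set A was made up of deletion replicates 1 and 2 and control replicate 1, with 26564 to 27879 genes that had at least 1 read. Set B was made up of deletion replicate 3 and control replicates 2 and 3, with 36197 to 37456 such genes. Set and group are therefore partly mixed, and fold changes are also given with the set as a term in the fit. The tissue label was borne out by its markers: 7 of 7 genes of mature olfactory neurons were detected in every library, and Omp, a marker of these neurons, had 125370 to 162748 normalized counts in deletion mice and 149810 to 181804 in control mice. Of the 15 genes that differed between the groups among 20368 tested (0.0736%, limma, Benjamini-Hochberg adjusted p under 0.05), 15 lay on chromosome 7.

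No Ift or Bbs gene differed between deletion and control mice by this test. All 23 were tested, 0 passed an adjusted p of 0.05 and 0 had an unadjusted p under 0.05, against 2.7% of all genes tested. The adjusted p was 0.982 for 22 of them and 0.987 for Ift57. With edgeR on the recovered reads 0 members had an unadjusted p under 0.05, and with DESeq2 1 did. The share of all genes under 0.05 was counted for limma alone, so the DESeq2 count has no background here and is not read as a result. In the authors' deposited table an adjusted p under 0.05 is listed for 33 genes, and 0 of them are Ift or Bbs genes. The values were narrow enough to bound the difference. For 22 of the 22 protein-coding members the 95% confidence interval of the fold change lay within 1.5-fold in either direction, which held for 64.4% of all genes tested. The median standard deviation between libraries of a group was 0.10 on the log2 scale for all 23 members and 0.16 for all genes tested.

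**Figure D1:**
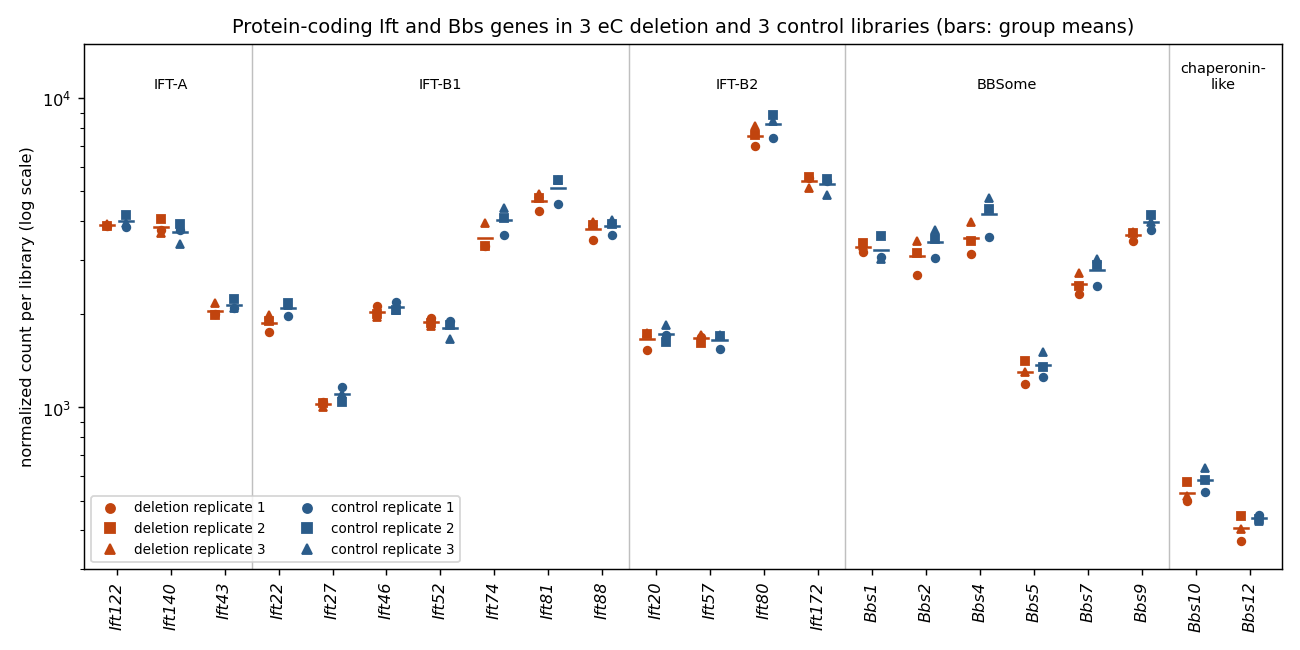
Normalized count (log axis) of the 22 protein-coding Ift and Bbs genes in each library, with deletion libraries in orange left of control libraries in blue and bars for the group means. Bbs9 is the single gene whose deletion libraries all lie below its control libraries, and Ift80 has the highest counts.

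The IFT-A members sat within a narrow band. Ift122, a core IFT-A subunit, had 3869, 3861 and 3935 normalized counts in the deletion libraries, against 3848, 4191 and 3959.6 in the control libraries (replicates 1, 2 and 3 in each case). Control replicate 2 lay above all others, and the remaining 5 libraries lay close together. Ift140, another core subunit, had 3754, 4067 and 3675 in deletion mice, against 3741, 3923 and 3389.8 in control mice, and its groups overlapped. Its log2 fold change of 0.06 ± 0.08 (SE), deletion over control, was among the largest 3 above 0. Ift43, a small peripheral subunit, averaged 2059 ± 99.1 in deletion mice and 2148 ± 78.0 in control mice (SD, n = 3 each). The median fold change of these 3 genes was -0.04 on the log2 scale.

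IFT-B is described in a core part, IFT-B1, and a peripheral part, IFT-B2. In IFT-B1, Ift74 and Ift81 bind each other along their length and together grip tubulin, a main cargo. Ift74 had 3337, 3339.5 and 3948 normalized counts in deletion mice, against 3621, 4106 and 4415 in control mice, so 2 of the deletion libraries were the lowest of all and the groups overlapped through deletion replicate 3. Its log2 fold change was -0.19 ± 0.10, with a 95% interval of -0.42 to 0.04. Ift81 had 4310.1, 4753 and 4913 in deletion mice, against 4548, 5427 and 5433 in control mice, with a log2 fold change of -0.14 ± 0.09.

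Ift22, a small GTPase-like subunit that sits on that pair, had 1756, 1908 and 1986 in deletion mice, against 1980.4, 2180.3 and 2143 in control mice. Its log2 fold change of -0.16 ± 0.07 had the smallest unadjusted p of all members (0.067, limma; adjusted p 0.982). The groups met at a single place, where deletion replicate 3 lay just above control replicate 1. Ift27, a small GTPase needed for the BBSome to leave the cilium, averaged 1027 ± 19.4 in deletion mice and 1103 ± 62.0 in control mice. Ift46 averaged 2034 ± 83.6 and 2115 ± 73.8 in the same order (SD, n = 3 each), and the groups of both genes overlapped. Ift88, whose loss stops cilium growth, averaged 3782 ± 257 in deletion mice and 3859 ± 230.2 in control mice. Ift52, which joins Ift88 in the core, had 1949, 1875 and 1839.5 in deletion mice, against 1904, 1843 and 1669 in control mice. Its log2 fold change of 0.07 ± 0.07 was the largest above 0 among all members, and its groups overlapped. The median of the 7 IFT-B1 genes was -0.10.

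In IFT-B2 the signs were split, with 2 genes above 0 and 2 below, and the median was -0.02. Ift172, a large subunit that acts where trains turn at the tip, had 5539.6, 5559.6 and 5149 normalized counts in deletion mice, against 5423, 5503 and 4879 in control mice. Its log2 fold change was 0.04 ± 0.07. The lowest library of each group was its replicate 3. Ift80 had the highest counts of all members, 6989 to 8163 in deletion mice and 7439.6 to 8858 in control mice. Ift57 averaged 1672 ± 53.7 in deletion mice and 1654 ± 92.9 in control mice, the smallest difference of the 23. Ift20, which also works at the Golgi in delivering membrane proteins to the cilium, averaged 1665 ± 116 in deletion mice and 1731 ± 106 in control mice.

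The name rule takes in 6 BBSome genes and leaves out the subunits Ttc8 and Bbip1, which are read with the partners. These 6 had a median of -0.15 on the log2 scale, with 5 of 6 below 0. In the fit that also held the library set it was -0.07, against -0.08 for IFT-B1, so the order of these groups depended on the fit. Bbs4, a subunit with tetratricopeptide repeats, had 3137, 3469 and 3979.6 normalized counts in deletion mice, against 3560.1, 4372 and 4758 in control mice. Both groups were spread widely and overlapped, with deletion replicate 3 above control replicate 1. Its log2 fold change was -0.26 ± 0.13 with a 95% interval of -0.55 to 0.03 (unadjusted p 0.073, limma; adjusted p 0.982). Adding the library set to the fit gave -0.15 ± 0.07 (adjusted p 1.00, limma), and within the sets it was -0.11 in set A and -0.20 in set B.

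Bbs9 was the single member whose groups did not overlap. It had 3447, 3679.5 and 3685 in deletion mice, against 3746, 4202 and 3993 in control mice, and its log2 fold change was -0.14 ± 0.07. Among all genes tested, 7.68% had groups that did not overlap, so 1 of 23 is no more than that background. Bbs2 and Bbs7, which form a subcomplex with Bbs9, averaged 3096 ± 392 and 2509 ± 198 in deletion mice, against 3437 ± 364 and 2793 ± 291 in control mice. Their log2 fold changes were -0.15 ± 0.11 and -0.15 ± 0.10. Bbs5, which binds membrane phosphoinositides, averaged 1305 ± 112 in deletion mice and 1374 ± 132 in control mice. Bbs1, the subunit that the GTPase Arl6 recruits, went the other way with 3308 ± 103 in deletion mice and 3225 ± 308 in control mice, a log2 fold change of 0.04 ± 0.08.

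Bbs10 and Bbs12 code for chaperonin-like proteins that help to put the BBSome together and are no part of it. Bbs10 had 499.7, 575 and 517 normalized counts in deletion mice, against 533, 583 and 637 in control mice. Bbs12 had 369.8, 446 and 406 in deletion mice, against 449, 435 and 429 in control mice. Both overlapped between groups, and their log2 fold changes were -0.14 ± 0.10 and -0.11 ± 0.10. Ift88os, the antisense RNA, was barely detected, with 12.7, 3.31 and 12.1 normalized counts in deletion mice, against 14.05, 13.8 and 10.5 in control mice. These values stand for 3 to 17 reads in deletion libraries and 9 to 19 in control libraries. It had the largest spread between libraries of all members, and its log2 fold change of -0.57 ± 0.54 had a 95% interval of -1.82 to 0.68, so a difference was not detectable at this depth. Because the strand setting of the authors' counting is not given, its reads cannot be separated from those of Ift88, on whose opposite strand it lies.

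**Figure D2:**
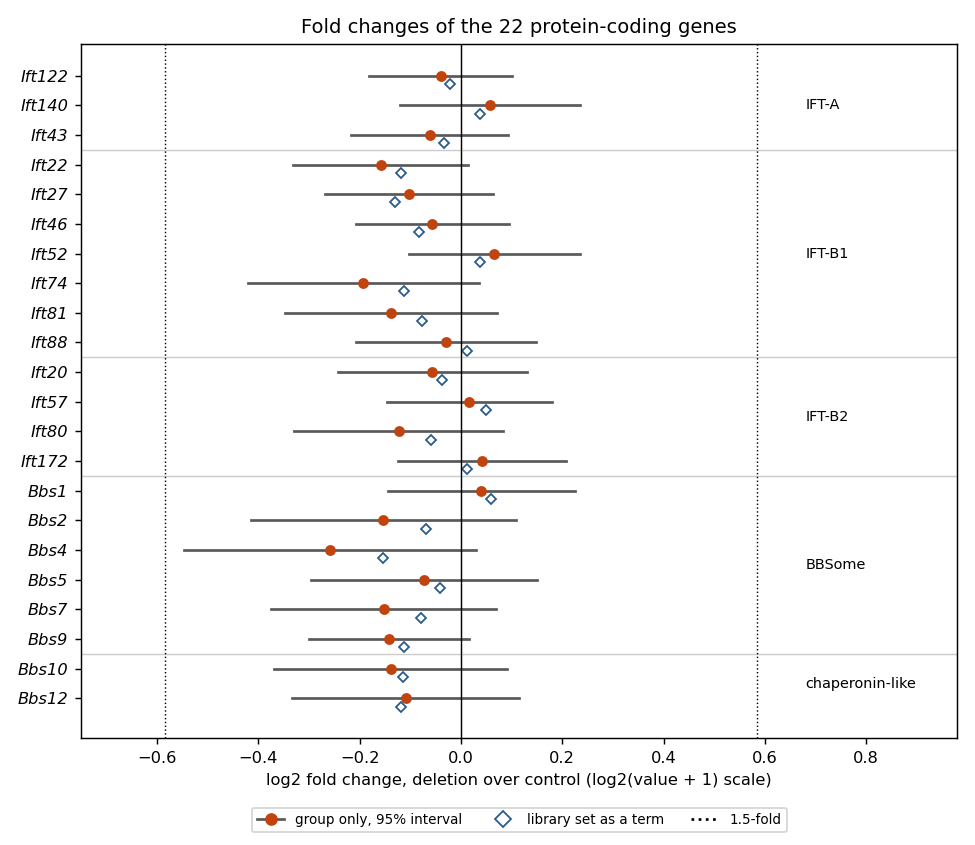
Log2 fold change, deletion over control, of the 22 protein-coding genes by complex, with orange points and 95% intervals from the fit with the group alone and open blue diamonds from the fit with the library set as a term. All intervals cross 0 and lie within the dotted 1.5-fold lines, and the diamond of Bbs4 is closer to 0 than its point.

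Most members lay slightly below 0, and none passed the test. Of all 23 members 18 had a log2 fold change below 0 and 5 above, with a median of -0.10 (-0.05 without deletion replicate 1 and -0.04 within set A), while among all genes tested 47.5% were below 0 and the median was 0.01. Adding the library set to the fit gave the members a median of -0.07, with 17 below 0 and 0 called, against 0.177% of all genes called in that fit. Ift22, Ift27, Ift46, Ift74, Bbs4, Bbs9 and Bbs12, 7 of 23, were lower in deletion mice within set A and within set B alike. This held for 11.3% of all genes tested. Ift57 was the single member higher in deletion mice within both sets, which 10.3% of all genes were. Members share libraries and are not independent of each other, so no test was made of these counts. Together the 23 genes took 0.164%, 0.169% and 0.179% of the reads in deletion mice, against 0.167%, 0.194% and 0.189% in control mice, and the groups overlapped.

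Several members differed more between the library sets than between the groups. Among the protein-coding members, as set B over set A, Bbs4 differed by 0.31 on the log2 scale, Bbs2 by 0.25, Ift74 by 0.24, Bbs7 by 0.22, and Ift80 and Ift81 by 0.19 each. At the other end Ift52 and Ift172 differed by -0.09 each and Ift27 and Ift46 by -0.08 each. The median was 0.16 for the 6 BBSome genes, all of them above 0, and 0.12, 0.08 and 0.05 for IFT-B1, IFT-B2 and IFT-A. Since the sets were recognised from the same table, these differences are a description and carry no p.

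Markers of olfactory neurons moved between the sets in the same direction as the 6 BBSome genes. Of all 23 members 17 were higher in set B, against 45.2% of all genes tested. The 7 genes of the mature neuron list were all higher in set B, with a median difference of 0.23, and the 6 genes of the immature neuron list all were, with a median of 0.19. Between the groups, 6 of 7 mature neuron markers had a log2 fold change below 0 (median -0.08), and 0 passed the test. In the fit with the set term 5 of 7 were below 0, and the median was -0.02. Their summed level was 347008 to 427281 normalized counts in deletion mice and 384499 to 466743 in control mice. Of the 8 markers of multiciliated cells 3 were higher in set B (Rsph1, Tekt1 and Dynlrb2) and 5 lower, with a median of -0.21. Between the groups 6 of 8 were above 0, with a median of 0.26, or 0.19 in the fit with the set term. Within both sets 4 of 8 were higher in deletion mice and 0 lower, against 10.3% and 11.3% of all genes tested. Their summed level was 27082 to 31830.2 in deletion mice and 22375 to 27617 in control mice, and 0 markers of either list were at 0 in any library. The part of cell composition in the values of the Ift and Bbs genes was not tested.

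**Figure D3:**
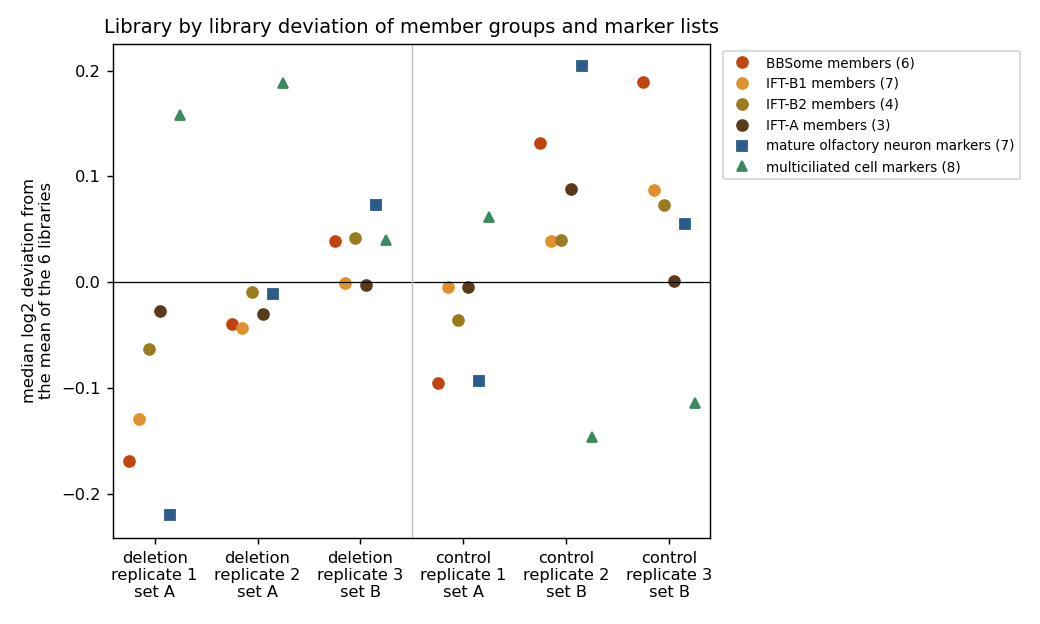
Median log2 deviation of each gene group from its mean over the 6 libraries, with the 3 deletion libraries left of the 3 control libraries and the set of each library on the axis. BBSome members run from -0.17 in deletion replicate 1 to 0.19 in control replicate 3, mature neuron markers follow a like course from -0.22 in deletion replicate 1 to 0.20 in control replicate 2, and IFT-A members stay within 0.09 of 0.

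The base composition of the transcripts also went with the difference between the sets. Across 20262 tested genes the Spearman correlation of GC content with the set B over set A difference was -0.29, and across the 22 protein-coding members it was -0.59. These are correlations across genes that share the same 6 libraries and are given as a description. When all genes were ordered by GC content and cut into 5 bins of equal size, the median difference was 0.07 in the bin poorest in GC and -0.13 in the richest. In the same bins the median log2 fold change between deletion and control was -0.04 and 0.05. Bbs4 (41.0% GC) and Ift74 (41.6%) are poor in GC, and Ift172 (53.3%) and Ift27 (55.8%) are rich. Not all members followed this order: Ift43, with the highest GC content of all (55.8%), differed by 0.08 between the sets, and Bbs2 (50.1%) by 0.25. The part of GC content in the differences of single members was not tested.

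**Figure D4:**
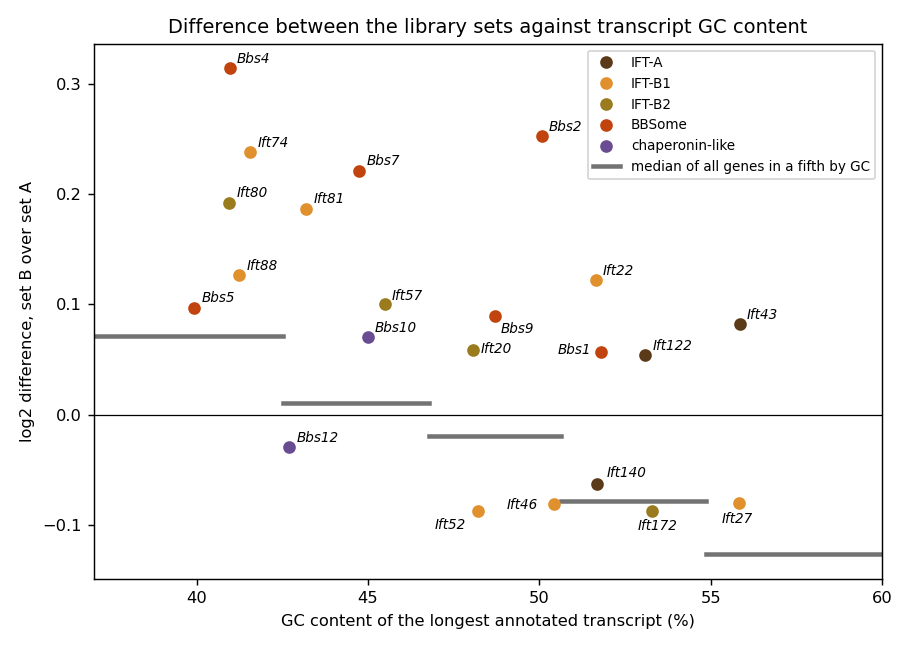
Log2 difference of set B over set A against the GC content of the longest annotated transcript for the 22 protein-coding genes, coloured by complex, with grey bars for the median of all tested genes in 5 bins by GC content. Bbs4 and Ift74 stand at upper left, Ift27 and Ift172 at lower right, and most members lie above the grey bar of their bin.

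Some subunits kept a near constant ratio to each other from mouse to mouse. The ratio of Bbs2 to Bbs7 per kb of exon was 2.00 ± 0.12 in deletion mice and 2.00 ± 0.02 in control mice (SD, n = 3 each) and ranged over the 6 libraries between 1.87 and 2.08. Its coefficient of variation was 3.80%, while that of Bbs2 alone was 11.8% and that of Bbs7 alone 10.3%. Ift74 and Ift81, the tubulin-binding pair, had a ratio of 1.67 ± 0.11 in deletion mice and 1.73 ± 0.06 in control mice, with a coefficient of variation of 5.25% against 11.5% and 9.38% for the genes alone. In both pairs the genes were high or low in the same libraries. All of these genes were also among the members that differed most between the library sets, by 0.19 to 0.25 (set B over set A). Pairs of members from different complexes were not examined. A near constant ratio is thus not shown to be particular to subunits that bind each other.

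The other 4 pairs examined were noisier as a ratio than either gene alone. Ift88 over Ift52 had a coefficient of variation of 10.7%, against 5.82% for Ift88 and 5.21% for Ift52. Ift27 over Hspb11, which codes for its partner IFT25, had 9.42%, Ift20 over Traf3ip1 (IFT54) 7.16%, and Ift57 over Cluap1 (IFT38) 6.502%. These ratios are of RNA and say nothing of the make-up of the protein complexes.

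Levels between genes were compared per kb of joined annotated exons, as normalized count per kb over all 6 libraries. Ift74 was highest with 1429 ± 164 (SD, n = 6), followed by Ift43 with 1274 ± 56.6 and Ift20 with 1114 ± 69.5. Ift74 and Ift43 did not differ beyond their spread, taken as the sum of their SDs. Bbs2, at 986 ± 117, was the highest BBSome gene. The next 16 genes lay between 323 ± 12.99 (Ift46) and 839 ± 78.7 (Ift81). Of the 22 neighbouring pairs in the whole order 6 differed beyond their spread: Ift43 and Ift20, Ift172 and Ift52, Bbs1 and Ift122, Ift27 and Ift46, Ift46 and Bbs10, and Bbs12 and Ift88os. The chaperonin-like members were the lowest that code for proteins, Bbs10 with 183 ± 16.7 and Bbs12 with 173 ± 12.4. These 2 did not differ beyond their spread. Ift88os had 5.49 ± 1.99. Set among all genes tested, the protein-coding members stood between the 57.7th (Bbs12) and the 94.6th percentile (Ift74) of level per kb, and Ift88os at the 7.10th.

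The order depended on the length used. By the longest annotated transcript, Ift43 came before Ift74 and Ift81 (2510 against 1774 and 1660 normalized counts per kb over all libraries), and the lowest 3 genes stayed the same. Deletion and control libraries gave like levels for the same gene. Ift74 had 1333 ± 133 per kb in deletion mice and 1524 ± 151 in control mice, Ift43 1247 ± 60.1 and 1301 ± 47.2, and Ift20 1092 ± 76.3 and 1135 ± 69.8 in the same order.

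**Figure D5:**
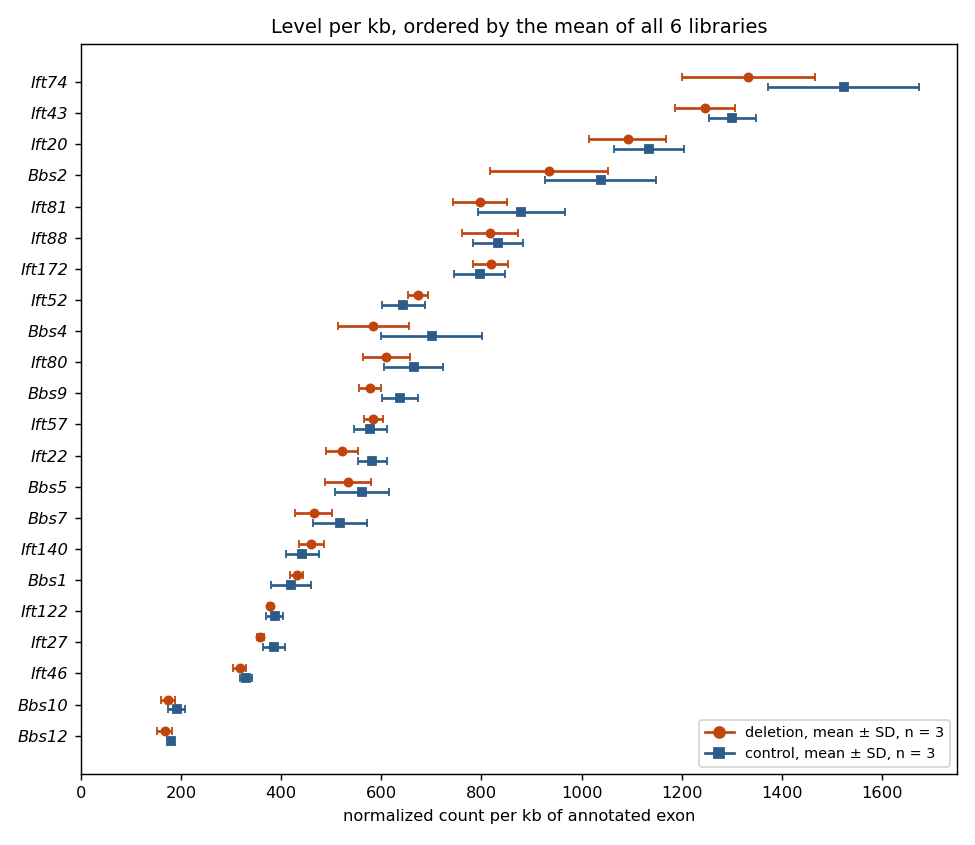
Normalized count per kb of annotated exon, mean ± SD of 3 libraries, with deletion (orange circles) above control (blue squares) for each of the 22 protein-coding genes, ordered by the mean of all 6 libraries. Ift74, Ift43 and Ift20 lead, Bbs10 and Bbs12 close the order, and the error bars of the groups overlap for most genes.

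RFX transcription factors bind X-boxes, imperfect palindromes found at many cilium genes across animals, so the promoters of the members were searched for them. RefSeq promoter sequences (GRCm38.p6, 250 bases before to 50 bases after the gene's start) were at hand for 19 of the 23 members, and Ift122, Ift80, Ift81 and Ift88os had no entry. The strict palindrome, GTTNCC followed by AT and then GGNAAC, was in 0 of 19, and in 0.128% of all 32851 promoters. A spaced palindrome, GTNNCC followed by GGNNAC with 1, 2 or 3 bases in between, was in 5 of 19 (26.3%), against 3.49% of all promoters and 4.48% of the 13594 promoters with as many CpG dinucleotides as the poorest member (11) or more. This looser form was chosen after the members' letters had been seen. It reads alike on both strands, and every strict match is also a match of it. The short motif GTTGCC, on either strand and overlapping the palindromes in part, was in 8 of 19 (42.1%: Ift140, Ift27, Ift88, Ift57, Ift172, Bbs1, Bbs5 and Bbs7) against 12.5% of all. Member promoters also held more CpG dinucleotides, with a median of 22 against 7 in all, and a median GC content of 57.7% against 52.7%. A match is a string of letters and no measured binding site. The starts are those of RefSeq, and the windows of Ift46 and Bbs2 lie wholly inside their GENCODE vM21 genes. For both, the bases before the GENCODE start were not searched.

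The 5 promoters with the spaced palindrome are shown because they include Bbs4 and Bbs7, which with Bbs2 and Ift74 had the largest differences between the library sets among protein-coding members, and Ift57, Bbs1 and Ift22, which differed by 0.12 or less. Each runs 5′ to 3′ on the strand of its gene, and capitals mark the palindrome. They are at chr9:59353459-59353758 (minus strand) for Bbs4, chr3:36613340-36613639 (minus) for Bbs7, chr16:49699044-49699343 (plus) for Ift57, chr19:4906578-4906877 (minus) for Bbs1 and chr5:136907900-136908199 (plus) for Ift22.
Bbs4: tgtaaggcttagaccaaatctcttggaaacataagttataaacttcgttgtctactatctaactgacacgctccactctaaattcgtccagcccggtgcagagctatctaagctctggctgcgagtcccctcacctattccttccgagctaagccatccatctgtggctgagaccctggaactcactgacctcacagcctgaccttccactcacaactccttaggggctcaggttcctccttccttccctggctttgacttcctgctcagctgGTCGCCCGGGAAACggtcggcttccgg
Bbs7: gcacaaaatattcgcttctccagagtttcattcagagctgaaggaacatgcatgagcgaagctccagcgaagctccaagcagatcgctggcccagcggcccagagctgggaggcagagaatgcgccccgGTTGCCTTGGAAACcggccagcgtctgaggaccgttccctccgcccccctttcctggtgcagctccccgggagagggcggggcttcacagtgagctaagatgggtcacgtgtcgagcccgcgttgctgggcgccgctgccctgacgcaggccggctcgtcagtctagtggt
Ift57: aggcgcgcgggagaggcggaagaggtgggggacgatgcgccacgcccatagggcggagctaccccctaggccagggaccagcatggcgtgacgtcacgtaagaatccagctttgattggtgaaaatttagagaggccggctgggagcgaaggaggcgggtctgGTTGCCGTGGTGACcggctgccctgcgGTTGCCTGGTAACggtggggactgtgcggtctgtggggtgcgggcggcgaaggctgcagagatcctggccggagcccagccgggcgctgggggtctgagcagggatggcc
Bbs1: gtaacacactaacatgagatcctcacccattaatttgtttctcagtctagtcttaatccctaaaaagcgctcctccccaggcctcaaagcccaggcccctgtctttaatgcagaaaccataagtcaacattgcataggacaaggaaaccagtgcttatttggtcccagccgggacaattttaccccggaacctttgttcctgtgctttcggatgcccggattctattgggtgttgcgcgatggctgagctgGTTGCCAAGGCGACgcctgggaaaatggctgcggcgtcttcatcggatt
Ift22: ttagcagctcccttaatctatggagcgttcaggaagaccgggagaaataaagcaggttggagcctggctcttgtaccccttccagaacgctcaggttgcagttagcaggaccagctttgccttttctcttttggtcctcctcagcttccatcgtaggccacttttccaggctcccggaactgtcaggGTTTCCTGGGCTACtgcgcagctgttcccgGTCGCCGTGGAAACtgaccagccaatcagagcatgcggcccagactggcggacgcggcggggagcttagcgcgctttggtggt
Counted from the first base shown, the palindrome began at position 274 in Bbs4, 130 in Bbs7 and 252 in Bbs1, where the gene's start is position 251. Ift57 held 2, at 164 and 191, and Ift22 held 2, at 188 and 218. In Bbs4 and Bbs1 the palindrome thus lies just past this RefSeq start, and in the others before it. Ift57 starts further upstream in GENCODE vM21, at 49699233, and its palindrome at 191 does not lie before that start. Bbs2 and Ift74, which differed between the sets like Bbs4 and Bbs7, had none in this window. The Bbs2 window does not reach its GENCODE start, so a palindrome there would have been missed.

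Genes that work with the members were read from lists and gave like values. Of the IFT-A partners 4 of 4 were tested and 0 differed, with a median log2 fold change of -0.06. Wdr35, an IFT-A subunit, averaged 4980.0 ± 291 normalized counts in deletion mice and 5358 ± 257 in control mice. Ttc21b, whose protein is also called IFT139, averaged 753 ± 50.5 and 787 ± 25.9 in the same order. These 2 had the smallest unadjusted p of their list, and neither p was under 0.05. Of the IFT-B partners 7 of 8 were tested, with 0 called and a median of -0.10, or -0.06 in the fit with the set term. Hspb11, the partner of Ift27, averaged 322 ± 26.9 in deletion mice and 362 ± 20.7 in control mice, and Rabl2, a small GTPase that binds IFT-B, averaged 1646 ± 106 and 1790.5 ± 57.9 in the same order. Ttc30a2 was too low to be tested.

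The BBSome partners had a median of -0.15, with 0 of 7 called, and of -0.06 in the fit with the set term. Of the 7, 5 lay below 0 and 2 above. Mkks, which like Bbs10 and Bbs12 codes for a chaperonin-like protein, was above 0, with a log2 fold change of 0.10 ± 0.08. Ccdc28b, a protein that binds BBSome subunits, averaged 1767 ± 161 in deletion mice and 1953 ± 109 in control mice. Bbip1, the smallest BBSome subunit, averaged 1805 ± 197 and 2023 ± 215 in the same order. These partners were also higher in set B than in set A in 7 of 7 cases, with a median difference of 0.19 and the largest, 0.35, for Ttc8. Since Ttc8 and Bbip1 are BBSome subunits, this list is not separate from the complex. Of the motors, kinesin-2 and dynein-2, 0 of 9 were called and the median was -0.05, or -0.01 in the fit with the set term. Kif17, a kinesin-2 motor, averaged 392 ± 39.4 in deletion mice and 439 ± 33.3 in control mice, and Wdr34, a dynein-2 chain, 2159 ± 24.2 and 2299 ± 58.9 in the same order.

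The cargo end of the pathway, the odour transduction proteins of the cilium, had 0 of 11 genes called, a median of -0.06 between the groups (-0.02 in the fit with the set term) and of 0.22 between the sets. Gng13, the gamma subunit of the olfactory G protein, had 10055.8, 12498 and 14762 normalized counts in deletion mice, against 13965, 14859 and 14793 in control mice. Deletion replicates 1 and 2 lay below all control libraries, and replicate 3 lay within the control range. Pde1c, a phosphodiesterase of olfactory cilia, averaged 18014 ± 2580.3 in deletion mice and 19471 ± 1847 in control mice. Of the genes of the motile axoneme 9 of 13 lay above 0, against 10687 of all 20368 genes tested. Their median was 0.05, or 0.03 in the fit with the set term. None of the 13 passed the test, while limma gave 3 of them an unadjusted p under 0.05, against 2.7% of all genes tested. Within set A and within set B alike 6 of the 13 were higher in deletion mice and 2 lower, against 10.3% and 11.3% of all genes tested. Dnah5, an outer arm dynein chain, had 13680.2, 11489 and 9491 in deletion mice, against 10235, 7919 and 6478 in control mice, and its groups overlapped. It was among the 6, and its log2 fold change was 0.35 ± 0.10 in the fit with the set term. Spag6l, a central pair protein, averaged 1316 ± 149 in deletion mice and 1108 ± 72.8 in control mice. The 95% interval lay within 1.5-fold for 10 of the 13 axoneme genes, and for 22 of the 22 protein-coding Ift and Bbs genes.

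Some member counts are uncertain because other annotated genes overlap them. Lrrc19 lies within Ift74 on the opposite strand, Tmem204 within Ift140, and the ends of Adpgk and Cetn4 overlap Bbs4 and Bbs12 from the opposite strand. Gm43439, a noncoding gene on the same strand, covers the whole of Bbs12, and processed pseudogenes lie within Ift80 and Bbs9. The sources used here do not say how reads of overlapping genes were assigned. The gene positions (GENCODE vM21, GRCm38) of the members discussed most are chromosome 9, 59321990 to 59353508, for Bbs4, chromosome 4, 94614491 to 94693229, for Ift74, chromosome 9, 22475715 to 22888280, for Bbs9 and chromosome 5, 136908150 to 136915404, for Ift22.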

How the data were processed

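Olfactory mucosa of 3 eC deletion and 3 control mice was profiled by RNA-seq of separate animals, per the labels' design text. Stranded libraries were made after removal of ribosomal RNA, per the labels' protocols. The submitters' processing notes name STAR 2.6.0, DESeq2 and GRCm38.p6. The read counter, the gene models used for counting and the strand setting: not given in the sources used here. The authors deposited for each library a normalized signal, a gene count divided by a size factor. Divided by what 1 read is worth, 100% of these values came out whole in every library (tolerance 0.001 reads), so reads were recovered. The authors also deposited log2 fold changes, their errors, a test statistic (a score) and p-values, from which counts of genes alone are used here.

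Because the values are normalized, limma 3.58.1 (trend) in R 4.3.3 was used on log2(value + 1), as written down for that case, with the group as its term. The 20368 genes that reached a value of 10 in 3 or more libraries were tested. Benjamini-Hochberg adjustment ran over all tested genes with a threshold of 0.05. Fold changes are deletion over control, and the pseudocount understates those of low genes. edgeR 4.0.16 on recovered reads called 15 genes. The p-values measure the spread between these animals. Lengths, positions and GC content came from GENCODE vM21, in which 40012 of 40273 genes were found; promoters came from RefSeq.

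The members, lists and tests were chosen with earlier results of these data known. All members are accounted for. Values in every library were to be given for members past the threshold, the 3 largest fold changes in either direction, the 3 highest and the 3 lowest per kb and the widest spread, and of each partner list the members past the threshold or the 2 with the smallest p; others were named after their values were seen. Alternatives were DESeq2 1.42.0, edgeR, limma voom with TMM factors, pseudocounts of 0.5 and 5, no filter, terms for replicate number and library set, each set alone, and each library left out. The fit was tested on simulated data.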

Additional observations from a re-analysis of the deposited data

How the results depend on the processing

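Under all 16 alternatives 0 of 23 members passed the threshold. The smallest adjusted p of a member was 0.143, in the fit with the replicate number as a block. The median log2 fold change of the members, -0.10, lay between -0.11 and -0.04 under the alternatives; it was -0.05 without deletion replicate 1, -0.07 with the set term and -0.04 within set A. The count of all genes called was 15 with limma and edgeR, 40 with DESeq2, 36 with the library set as a term, 63 within set A and 86 within set B, where a lone library is assumed to vary like the other group; leaving out 1 library gave 4 (without deletion replicate 2) to 22 (without deletion replicate 3). Whether replicate numbers pair the samples could not be told. Deviations of same-numbered libraries correlated by 0.65, -0.34 and 0.66, and not every library correlated best with its own number. The libraries of replicate 1 share a set, as do those of replicate 3, while those of replicate 2 are in different sets. The correlations therefore cannot separate pairing from the library set. The replicate block called 46 genes.

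Of 368 member fold changes 17 changed sign, in 11 members, all small. With the set term Ift88 was at 0.012. Within set A, Ift122 was at 0.0065, Ift88 at 0.031, Bbs5 at 0.057 and Bbs10 at 0.0085. Within set B, Ift43 was at 0.0020, Ift20 at 0.0019, Ift172 at -0.0091 and Ift88os at 0.0059. With each library left out, Bbs1 lay between -0.0057 and 0.12, Ift140 between -0.0010 and 0.10, Ift172 between -0.013 and 0.077, Ift20 between -0.10 and 0.0029, Ift57 between -0.031 and 0.042, and Ift88 between -0.078 and 0.027. By longest transcript the median level per kb of the members was 887, against 573 by joined exons. The cause was not tested. The lowest members, Bbs10, Bbs12 and Ift88os, are those where depth limits the fold change most.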

Other observations

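Lists of genes around the transport machinery gave further values. Of the ciliary gate, the transition zone proteins through which transport trains pass, 14 of 14 genes were tested and 0 called, with a median log2 fold change of -0.02. Tctn3, a transition zone protein, had 1458, 1583 and 1479.8 normalized counts in deletion mice, against 1345, 1413 and 1271 in control mice (unadjusted p 0.051, limma). Its groups did not overlap, which held for 1 of these 14 genes and for 7.68% of all genes tested, so this is near that background. B9d2, another such protein, averaged 556 ± 67.97 in deletion mice and 626 ± 21.996 in control mice (SD, n = 3 each). Of the transcription factors of cilium genes 0 of 10 were called and 8 of 10 lay above 0, with a median of 0.08. In the fit with the set term the medians of these lists were 0.0088 and 0.06. Foxj1, a master regulator of motile cilia, averaged 6378 ± 626 in deletion mice and 5589.6 ± 393 in control mice, and Gmnc, which acts early in multiciliated cells, 102 ± 15.8 and 80.4 ± 13.96 in the same order.

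No gene of the other marker lists was called by limma with the group alone. There 4 of 6 erythroid markers and 1 of 6 basal cell markers had an unadjusted p under 0.05, against 2.7% of all genes tested. With the set as a term 2 erythroid markers, the globin genes Hbb-bs and Hbb-bt, were called (limma, adjusted p 0.0099 and 0.0039), both lower in deletion mice. In that fit 0.177% of all genes were called. Hbb-bs and Hbb-bt belong to the beta-globin locus, on the same chromosome as eC. The part of that position, and of erythroid cell content, in their values was not tested. With the group alone the log2 fold changes of the 6 erythroid markers ran from -2.94 to -0.23. All 6 were thus below 0, though of unlike size. The groups did not overlap for 3 of the 6 erythroid markers, against 7.68% of all genes tested. Within both sets 5 of 6 were lower in deletion mice, against 11.3% of all genes tested. The median log2 fold changes of the lists between the groups were 0.03 for sustentacular cells, 0.24 for basal cells, 0.12 for gland cells, -0.0027 for immune cells, 0.04 for glia and stroma, -0.06 for immature neurons and -0.46 for erythroid cells. In the fit with the set term they were -0.06, -0.0078, 0.0090, 0.05, 0.02, -0.02 and -0.56 in that order, so the basal and gland medians came close to 0 and the sustentacular, basal and immune medians changed sign. Between the sets, B over A, the medians were -0.20, -0.39, -0.38, -0.12, -0.04, 0.19 and -0.34 in that order.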
